A study of Rattus norvegicus with 25 samples.

Results

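The mature strands of miR-126, miR-221 and miR-222 were followed in rat sperm. The members are all rows of the deposited miRNA matrix whose names start with rno-miR-126, rno-miR-221- or rno-miR-222-, which gave 6 of the 562 miRNAs listed, namely 2 strands of the miR-126 hairpin and 4 strands of the miR-221 and miR-222 hairpins. Of these, 5 passed the filter on low counts. The sixth, rno-miR-222-5p, did not and was not tested. The antisense miRNA rno-miR-126b, which lies across from the miR-126a strands, was not among the rows. Small RNA was sequenced from mature cauda epididymal sperm, purified by double swim-up, of male Sprague–Dawley rats that had self-administered either morphine or saline through an intravenous catheter. The 4 groups follow from drug and collection time. F0_SAL (n = 7) and F0_MOR (n = 7) were the saline and morphine males sampled at the end of self-administration, and F0_ABS-SAL (n = 5) and F0_ABS-MOR (n = 6) were the saline and morphine males sampled after 90 days of abstinence. Libraries are named here by the letter of their column. Abstinent males were older and further in time from behavioural testing. The study named alternative culture media for releasing the sperm. The sources used here give no medium and no preparation or sequencing batch for single libraries. Collection time, age, time since self-administration, medium and any such batch therefore cannot be told apart.

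miRNAs are cut from a hairpin precursor with a 5p and a 3p strand, and one strand is usually kept in the silencing complex more often than the other. It finds its targets through the seed, bases 2 to 8. miR-126 sits in an intron of Egfl7 and is a marker of endothelial cells, where it restrains Spred1 and Pik3r2 and so supports VEGF signalling. miR-221 and miR-222 lie side by side on the X chromosome, and both repress Kit and the cell cycle inhibitor Cdkn1b. They are abundant in vessels and many epithelia, and in the testis they are known for holding spermatogonia in the undifferentiated state. The label "endothelial" refers to this background, since a sperm miRNA table holds no endothelial mRNA against which the cell of origin could be checked.

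The mature sequences, from RefSeq (GRCr8), are shown because the seeds divide the members into separate targeting groups. The seed is in capitals.
rno-miR-126a-3p: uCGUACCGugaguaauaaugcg
rno-miR-126a-5p: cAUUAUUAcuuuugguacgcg
rno-miR-221-3p: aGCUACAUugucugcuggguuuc
rno-miR-222-3p: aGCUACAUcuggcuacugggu
rno-miR-221-5p: aCCUGGCAuacaauguagauuuc
rno-miR-222-5p: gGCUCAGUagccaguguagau
The 3p strands of miR-221 and miR-222 shared their first 8 bases and with them the whole seed, while from the 5′ end 11 of 21 positions were identical. Among 693 mature rat miRNAs in the table, no other carried this seed, and the seed of each of the other 4 members was carried by no second miRNA. The 5p strands of miR-221 and miR-222 had different seeds. The pair thus forms a single seed group through its 3p strands, and reads of these 2 strands can be told apart by their 3′ parts.

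The hairpins of the pair are shown with both mature strands in capitals, the 5p strand first.
Mir221: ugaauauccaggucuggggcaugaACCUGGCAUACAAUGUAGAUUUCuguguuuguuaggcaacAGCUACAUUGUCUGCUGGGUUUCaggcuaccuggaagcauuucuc
Mir222: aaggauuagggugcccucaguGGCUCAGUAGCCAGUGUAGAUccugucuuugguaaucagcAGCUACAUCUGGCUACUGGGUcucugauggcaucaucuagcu

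Libraries held 1032386 to 3203211 miRNA reads. F0_SAL had a median of 1701012 and F0_MOR of 1428308, against 2334377 for F0_ABS-SAL and 2134169 for F0_ABS-MOR. At these medians, 3 reads correspond to between 1.29 and 2.10 CPM (counts scaled to a common library size), which is the limit set by counting error alone. Levels below are CPM after TMM scaling. The strand rno-miR-126a-3p ranked 66th of 562 by its mean level over all libraries (914 CPM). It was followed by rno-miR-221-3p at rank 111 (250 CPM), rno-miR-126a-5p at rank 162 (71.3 CPM), rno-miR-222-3p at rank 168 (64.4 CPM) and rno-miR-221-5p at rank 225 (21.1 CPM). The lowest was rno-miR-222-5p at rank 376 (1.01 CPM, 54 reads in all 25 libraries together). Ligation efficiency differs between small RNA sequences, so the order is one of reads, not of molecules.

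Both strands of miR-126 were higher at the later collection in saline and in morphine males. The study had already listed rno-miR-126a-3p among the top miRNAs of both comparisons of collection time in these data, with the same direction in each. The 3p strand stood at 623 ± 93.6 CPM (SD, n = 7) in F0_SAL, with a lowest value of 503, a median of 612 and a highest of 738. In F0_ABS-SAL it was 633 in library E, 1246 in K, 1287 in Y, 1656 in R and 2611 in L. Thus 4 of the 5 abstinent saline libraries lay above every F0_SAL library, and library E lay within the F0_SAL range. This was a log2 fold change of 1.25 ± 0.21 (SE, edgeR adjusted p = 1.94e-04). Library L drew the value up most and library E drew it down most, with 0.90 without L (adjusted p = 0.00266) and 1.36 without E (adjusted p = 1.03e-05).

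In the morphine males the same strand separated fully by collection time. It was 613 ± 47.7 CPM (SD, n = 7) in F0_MOR, lowest 555, median 605 and highest 683, and 1126 ± 136 CPM (SD, n = 6) in F0_ABS-MOR, lowest 987, median 1084 and highest 1321. All 6 abstinent libraries lay above all 7 nonabstinent ones. In the edgeR fit the log2 difference was 0.88 ± 0.20 (SE, adjusted p = 0.00677). The spread within the groups also differed, since F0_MOR was narrow and F0_ABS-SAL held values from 633 to 2611.

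The 5p strand of miR-126, the less read strand of the hairpin, was 44.5 ± 9.65 CPM (SD, n = 7) in F0_SAL, lowest 25.5, median 45 and highest 57.0. In F0_ABS-SAL it was 74.6 in library E, 103 in Y, 129 in K, 132 in R and 210 in L. Here the groups did not overlap, and library E, inside the F0_SAL range for the 3p strand, was above it for the 5p strand. edgeR gave a log2 fold change of 1.54 ± 0.26 (SE, adjusted p = 2.15e-04). In F0_MOR it was 42.8 ± 8.90 CPM (SD, n = 7), lowest 29.0, median 44.4 and highest 54.6. In F0_ABS-MOR the values fell into a low and a high set, with 49.2 in library X, 51.3 in Q and 61.0 in S against 105 in D, 119 in J and 136 in I. Libraries X and Q lay inside the F0_MOR range and the other 4 above it. This was a log2 fold change of 1.02 ± 0.26 (SE, edgeR adjusted p = 0.00800).

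**Figure D1:**
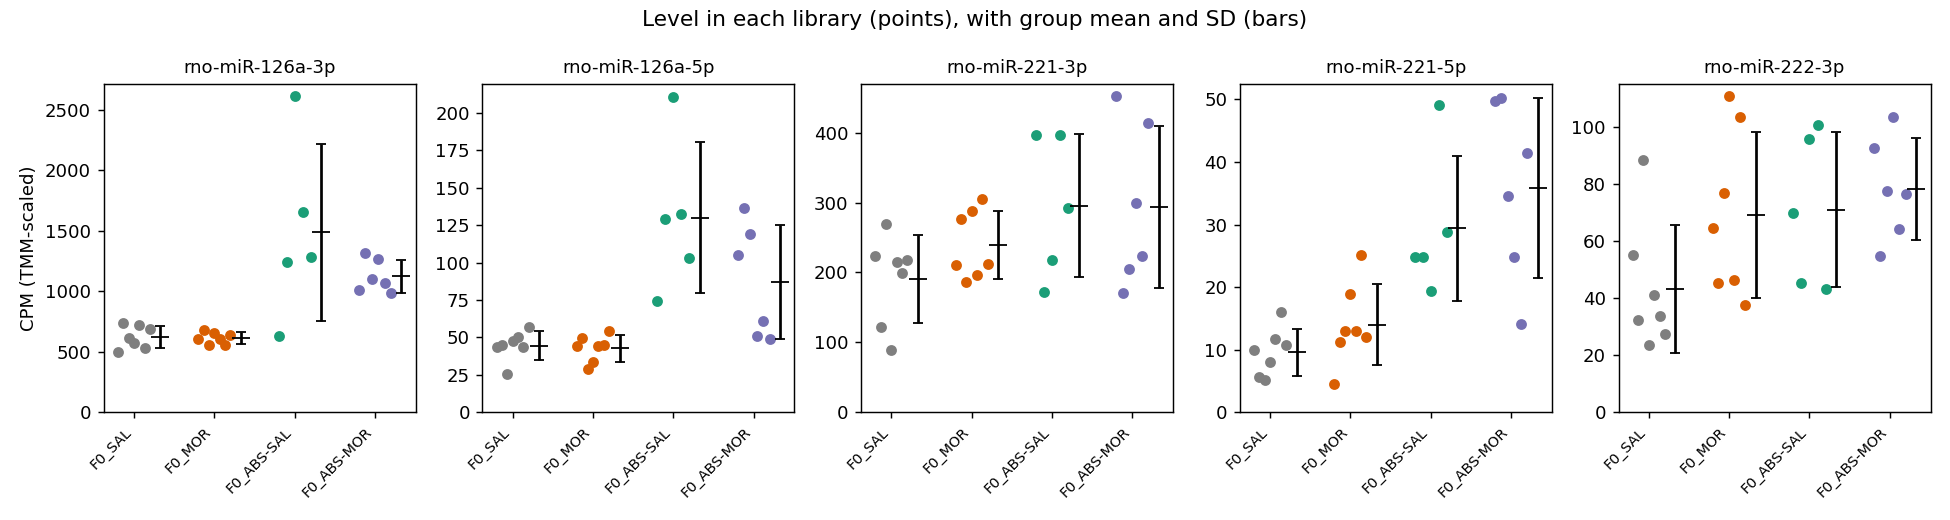
Level of each tested member in CPM (TMM-scaled, linear axis) by group, with 1 point per library and the group mean ± SD beside the points. Both miR-126a strands and rno-miR-221-5p sit higher in the abstinent groups, while the points of rno-miR-221-3p and rno-miR-222-3p overlap between all 4 groups.

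The seed-sharing 3p strands of miR-221 and miR-222 moved less. For rno-miR-221-3p the level was 191 ± 63.0 CPM (SD, n = 7) in F0_SAL, lowest 88.8 in library O, median 215 and highest 270. In F0_ABS-SAL it was 172 in K, 219 in L, 293 in Y and 397 in both E and R. Only E, R and Y exceeded all F0_SAL libraries, and K lay below the F0_SAL median. In the edgeR fit the log2 difference was 0.63 ± 0.27 (SE, adjusted p = 0.0710). In the morphine males it was 239 ± 48.8 CPM (SD, n = 7) in F0_MOR and 294 ± 116 CPM (SD, n = 6) in F0_ABS-MOR, with ranges of 186 to 305 and 171 to 452. The log2 fold change there was 0.30 (approximate 95% interval -0.22 to 0.82, adjusted p = 0.449), and the lowest and the highest library of these 2 groups were both abstinent.

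For rno-miR-222-3p the level was 43.1 ± 22.5 CPM (SD, n = 7) in F0_SAL, lowest 23.7 in library O, median 33.7 and highest 88.5 in library H. In F0_ABS-SAL it was 43.2 in Y, 45.4 in K, 69.8 in E, 95.9 in L and 101 in R. The abstinent libraries were above 5 of the 7 F0_SAL libraries, but H was higher than 3 of them. edgeR gave a log2 fold change of 0.73 ± 0.31 (SE, adjusted p = 0.0710). In F0_MOR it was 69.3 ± 29.1 CPM (SD, n = 7) and in F0_ABS-MOR 78.2 ± 17.9 CPM (SD, n = 6), and the abstinent range of 54.7 to 103.5 lay within the nonabstinent range of 37.6 to 111. The log2 fold change was 0.18 (approximate 95% interval -0.42 to 0.78, adjusted p = 0.721).

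These 2 calls in the saline males were the least firm of the members. Leaving out F0_ABS-SAL library R ended both, with log2 fold changes of 0.47 for rno-miR-221-3p (adjusted p = 0.222) and 0.57 for rno-miR-222-3p (adjusted p = 0.201). Leaving out F0_ABS-SAL library E ended both as well (0.44, adjusted p = 0.199, and 0.67, adjusted p = 0.102), and so did F0_SAL library O (0.48, adjusted p = 0.132, and 0.63, adjusted p = 0.109). The call of rno-miR-221-3p also ended without F0_SAL library F (0.54, adjusted p = 0.122). That of rno-miR-222-3p ended without F0_SAL library W (0.64, adjusted p = 0.112) and without F0_ABS-SAL library L (0.56, adjusted p = 0.181).

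The 5p strand of miR-221 moved more than its partner. It was 9.59 ± 3.74 CPM (SD, n = 7) in F0_SAL, lowest 5.11, median 9.93 and highest 16.0. In F0_ABS-SAL it was 19.4 in L, 24.8 in K, 24.9 in E, 28.8 in Y and 49.1 in R, so that every abstinent library lay above every F0_SAL library. This was a log2 fold change of 1.60 ± 0.35 (SE, edgeR adjusted p = 0.00195). In F0_MOR it was 14.01 ± 6.45 CPM (SD, n = 7), lowest 4.59, median 13.0 and highest 25.1, and in F0_ABS-MOR 35.8 ± 14.3 CPM (SD, n = 6), lowest 14.1, median 38.0 and highest 50.2. In F0_ABS-MOR, 4 of the 6 libraries exceeded all of F0_MOR, and libraries S and Q did not. In the edgeR fit the log2 difference was 1.38 ± 0.33 (SE, adjusted p = 0.00800). These levels rest on few reads, between 6 and 28 per nonabstinent library and between 30 and 123 per abstinent library.

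The untested strand, rno-miR-222-5p, was read in 1 of 7 F0_SAL libraries, 4 of 7 F0_MOR, 5 of 5 F0_ABS-SAL and 5 of 6 F0_ABS-MOR libraries, with at most 9 reads in any. The abstinent groups also held more miRNA reads per library at the median, and counts this low were not compared further.

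By the study's criteria, a miRNA was called where its adjusted p lay under 0.1 and its log2 fold change exceeded 0.58 in size. All 5 tested members were called higher in F0_ABS-SAL than in F0_SAL, where 22.4% of the 317 miRNAs tested were called higher and 10.7% lower. The balance of all calls depends on the scaling, from 71 higher and 34 lower with TMM to 110 and 1 with total count alone and 33 and 77 with scaling to rno-miR-186-5p, the study's qPCR reference. In F0_ABS-MOR against F0_MOR, 3 of 5 were called higher, both miR-126a strands and rno-miR-221-5p, where 11% of all miRNAs tested were called higher and 10.1% lower (35 and 32 with TMM, 57 and 14 with total count alone, 22 and 31 with rno-miR-186-5p). The median log2 fold change over the 5 was 1.25 in the saline and 0.88 in the morphine males, against 0.00 over all 317 in each. Ranked by p among the 317, rno-miR-126a-3p was 2nd and 6th, rno-miR-126a-5p 3rd and 12th, and rno-miR-221-5p 12th and 7th, in the saline and morphine males respectively. The 3p strands of miR-221 and miR-222 ranked 106th and 105th in the saline males and 178th and 238th in the morphine males. Whether the change with collection time differed between saline and morphine males was tested as the interaction, and 0 of 5 members were called, as were 0% of all miRNAs (10 of the 317 had an unadjusted p under 0.05). For rno-miR-126a-3p the change was larger in saline males by 0.38 (approximate 95% interval -0.21 to 0.97, adjusted p = 0.953). For rno-miR-126a-5p it was larger by 0.52 (interval -0.24 to 1.27, adjusted p = 0.953). Without F0_ABS-SAL library L these differences were 0.030 and 0.23. A difference between the drug groups was therefore not shown for any member, with intervals too wide to call them alike.

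**Figure D2:**
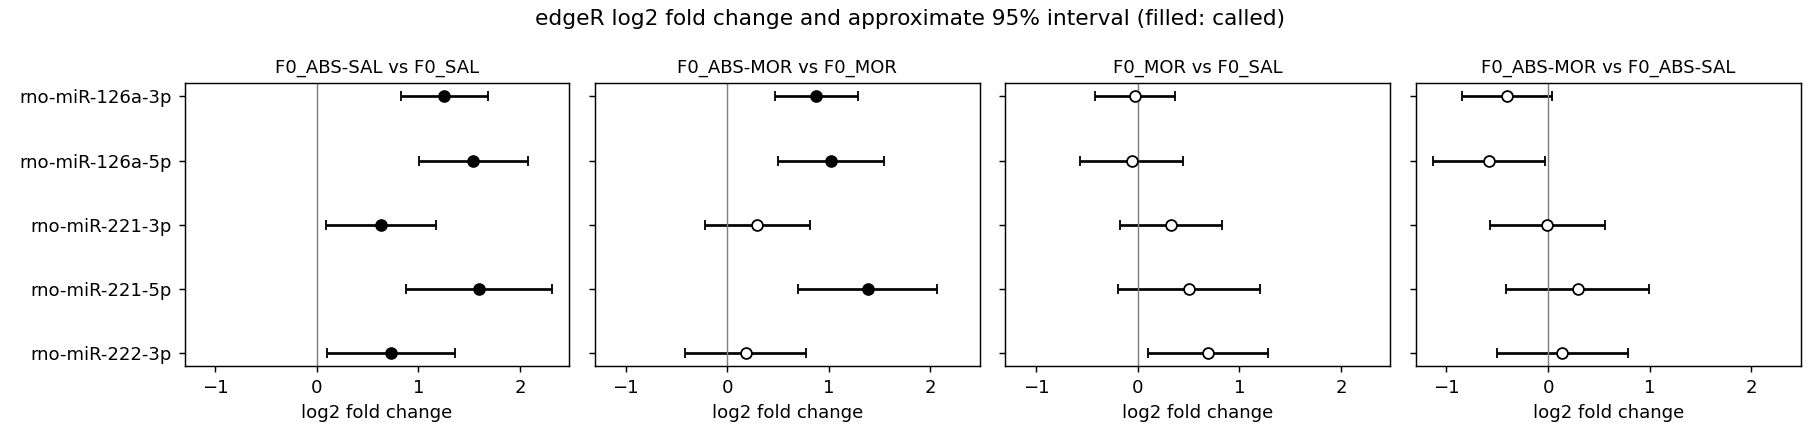
edgeR log2 fold change of each tested member (points) with its approximate 95% interval (bars) in the 4 pairwise comparisons. Filled points passed the study's criteria, which 5 members did in F0_ABS-SAL against F0_SAL, 3 in F0_ABS-MOR against F0_MOR and 0 in the 2 comparisons of morphine with saline.

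Ratios of reads within a library do not depend on how libraries are scaled. Each of the 3 ratios was compared in the 4 pairs of groups by a two-sided exact permutation test on the log2 scale with 0.5 added to each count, and p was adjusted over these 12 tests. Of every 100 reads of miR-221-3p, the median F0_SAL library had 4.92 of miR-221-5p and the median F0_MOR library 6.58, against 9.83 for F0_ABS-SAL and 10.5 for F0_ABS-MOR. In F0_ABS-SAL it was 6.27 in E, 8.87 in L, 9.83 in Y, 12.4 in R and 14.4 in K, against a range of 1.89 to 9.05 in F0_SAL. The mean log2 ratio was higher by 0.95 (exact permutation p = 0.0152, adjusted p = 0.0909), and 3 of the 5 abstinent libraries lay above all F0_SAL libraries.

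In F0_ABS-MOR the miR-221 ratio ran from 6.29 in library S to 29.4 in library I, against 2.18 to 8.22 in F0_MOR. The mean log2 ratio was higher by 1.12 (exact permutation p = 0.00932, adjusted p = 0.0909), and 5 of the 6 abstinent libraries lay above all F0_MOR libraries. Within the miR-221 hairpin the 5p strand rose relative to the 3p strand at an adjusted p under 0.1 in both drug groups. With 5 instead of 0.5 added to each count, which draws low counts together, the differences were 0.65 (adjusted p = 0.288) and 0.90 (adjusted p = 0.196) and the calls were lost. The call in saline males was also lost without F0_SAL library C, F, H, P or W or without F0_ABS-SAL library K, L, R or Y, taken singly, with differences from 0.73 to 0.99. That in morphine males was lost without F0_MOR library A, B or U or F0_ABS-MOR library D, I, J or X, with differences from 0.86 to 1.17. The direction stayed the same in each of these subsets.

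For miR-126a, no shift between the strands was detected. Per 100 reads of miR-126a-3p, the median F0_SAL library had 8.15 reads of miR-126a-5p and the median F0_MOR library 7.28, against 8.05 for F0_ABS-SAL and 8.01 for F0_ABS-MOR. The log2 ratio differed by 0.37 between F0_ABS-SAL and F0_SAL (exact permutation p = 0.0884, adjusted p = 0.354). Between F0_ABS-MOR and F0_MOR it differed by 0.05 (exact permutation p = 0.864, adjusted p = 0.942). The F0_ABS-MOR libraries were again split, with 4.06 in Q, 4.98 in X and 5.70 in S against 10.3 in D and in I and 10.8 in J.

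Reads of miR-222-3p per 100 of miR-221-3p give the balance of the pair that shares a seed. Their medians were 24.6 for F0_SAL and 30.8 for F0_MOR, against 25.4 for F0_ABS-SAL and 30.4 for F0_ABS-MOR. Single libraries ran from 12.6 to 43.9, and the groups overlapped throughout. The adjusted p was at least 0.594 in the 4 comparisons by the exact permutation test.

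**Figure D3:**
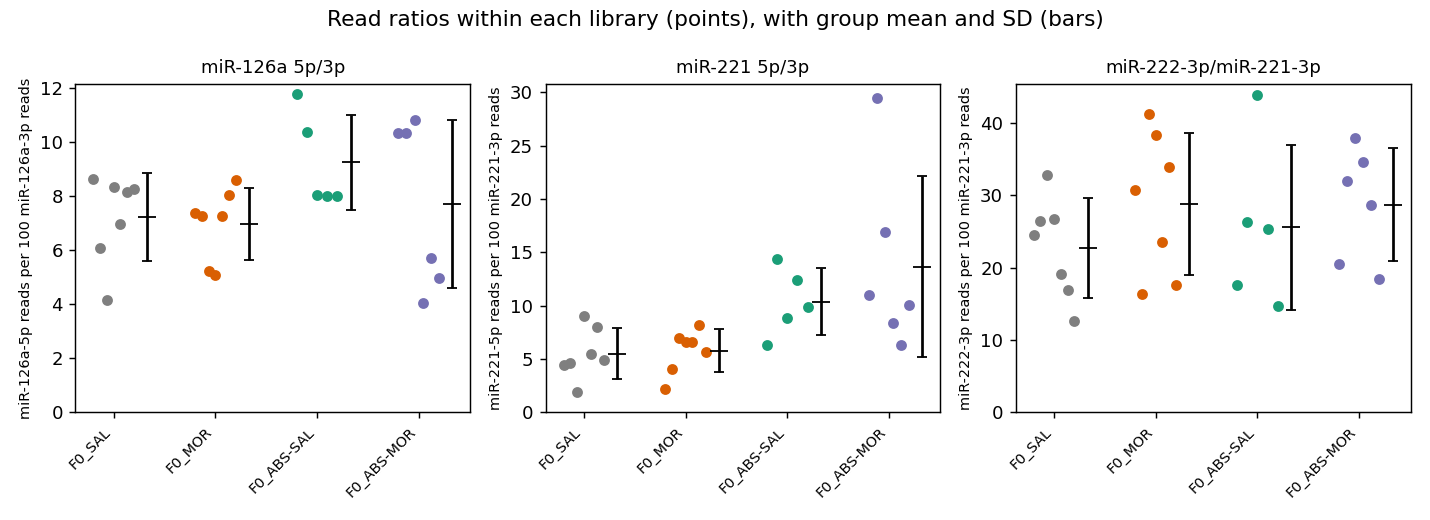
Reads of 1 strand per 100 reads of another in each library (points), with the group mean ± SD, for miR-126a 5p over 3p, miR-221 5p over 3p and miR-222-3p over miR-221-3p. The miR-221 ratio sits higher in the abstinent groups, with medians of 9.83 and 10.5 against 4.92 and 6.58, with some overlap, while the other ratios show no such shift in their medians.

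Between morphine and saline males of the same collection time, 0 of 5 members were called, where 0% of the 317 miRNAs were called. The study, with DESeq2, did report rno-miR-150-5p, not a member, as differing between F0_MOR and F0_SAL. Here its log2 fold change was 0.92 with an edgeR adjusted p of 0.311, so it was not called. At the end of self-administration, 23 of the 317 had an unadjusted p under 0.05 (edgeR's quasi-likelihood test), and 1 of these was a member, rno-miR-222-3p. Its log2 fold change between F0_MOR and F0_SAL was 0.69 (approximate 95% interval 0.10 to 1.28, unadjusted p = 0.0224, adjusted p = 0.547), and it ranked 11th by p. The groups overlapped, since 2 of 7 F0_MOR libraries, M and T, exceeded all F0_SAL libraries and 4 of 7 F0_SAL libraries lay below all of F0_MOR. Its seed partner rno-miR-221-3p had a log2 fold change of 0.33 (interval -0.17 to 0.83, adjusted p = 0.771), and rno-miR-221-5p had 0.51 (interval -0.19 to 1.21, adjusted p = 0.730).

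For miR-126a the values in this comparison lay near 0. The log2 fold change of rno-miR-126a-3p between F0_MOR and F0_SAL was -0.02 (interval -0.42 to 0.37, adjusted p = 0.963) and that of rno-miR-126a-5p was -0.06 (interval -0.57 to 0.45, adjusted p = 0.938). With libraries scaled by total count alone, both values were above 0, at 0.16 and 0.14.

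After abstinence, 4 of the 317 miRNAs had an unadjusted p under 0.05 between F0_ABS-MOR and F0_ABS-SAL, and 1 of them was a member. This was rno-miR-126a-5p, with a log2 fold change of -0.58 (interval -1.13 to -0.03, unadjusted p = 0.0407, adjusted p = 1.00). Libraries X, Q and S of F0_ABS-MOR lay below every F0_ABS-SAL library, and D, I and J lay within their range. The 3p strand had -0.40 (interval -0.84 to 0.04, adjusted p = 1.00). Without F0_ABS-SAL library L, rno-miR-126a-5p was at -0.34 and rno-miR-126a-3p at -0.098, and without library E the latter was at -0.56. For rno-miR-221-3p, rno-miR-221-5p and rno-miR-222-3p the values were -0.01 (interval -0.57 to 0.56), 0.29 (interval -0.41 to 1.00) and 0.14 (interval -0.50 to 0.79).

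To see whether the 2 loci moved together between animals, the group mean was removed from each member's log2 CPM and the 10 pairs of members were correlated over the 25 libraries, with p from 100000 permutations within groups and adjusted over the 10 pairs. All levels share the scaling factor of their library. Between the loci, rno-miR-126a-3p and rno-miR-221-3p had a Pearson's r of -0.26 and a Spearman's rho of -0.24 (permutation p = 0.300 and 0.307, adjusted p = 0.459 and 0.439). Without libraries E and L, which were farthest from the median of rno-miR-126a-3p, r was -0.05. Within the 14 nonabstinent libraries r was 0.01 (permutation p = 0.988) and within the 11 abstinent ones -0.39 (permutation p = 0.272). Among the 316 other miRNAs tested, rno-miR-221-3p ranked 261st by r with rno-miR-126a-3p. The other 5 pairs across the loci had r between -0.38 and 0.23 and adjusted p of 0.232 or more. Of these, rno-miR-126a-5p and rno-miR-222-3p had r = -0.33 over all libraries, with -0.76 in the nonabstinent ones (permutation p = 0.00427) and 0.04 in the abstinent ones (permutation p = 0.902). Library E had the lowest rno-miR-126a-3p of its group and a rno-miR-221-3p level of 397 CPM, shared with R as the highest. The other strands of that locus did not stand out in E, with log2 CPM minus the group mean of 0.06 for rno-miR-222-3p and -0.16 for rno-miR-221-5p. Both loci were higher after abstinence in saline males, but with group means removed none of the 6 pairs across the loci had an adjusted p under 0.1 over all 25 libraries. Without library L, rno-miR-126a-5p and rno-miR-222-3p had r = -0.47 (adjusted permutation p = 0.0674).

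Within the pair, rno-miR-221-3p and rno-miR-222-3p had r = 0.55 and rho = 0.54 (permutation p = 0.00685 and 0.00679, adjusted p = 0.0685 and 0.0679). Without libraries K and O, r was 0.44, and it was 0.61 in the nonabstinent (permutation p = 0.0285) and 0.50 in the abstinent libraries (permutation p = 0.132). Leaving out F0_ABS-SAL library K or R or F0_ABS-MOR library I, singly, took the adjusted p above 0.1, with r from 0.51 to 0.52. For comparison, the median r of rno-miR-221-3p with the other 316 miRNAs was 0.09, and rno-miR-222-3p ranked 32nd. The strands of miR-221 had r = 0.33 and rho = 0.40 (permutation p = 0.116 and 0.0685, adjusted p = 0.232 and 0.228). The strands of miR-126a had r = 0.54 and rho = 0.42 (permutation p = 0.0140 and 0.0614, adjusted p = 0.0700 and 0.228). The last relation rested on libraries E and L, without which r was 0.27. Its adjusted p also rose above 0.1 when F0_MOR library G, F0_ABS-SAL library E, K, L, R or Y, or F0_ABS-MOR library I or X was left out singly, with r from 0.40 to 0.54. It was 0.28 in the nonabstinent libraries (permutation p = 0.402) and 0.62 in the abstinent ones (permutation p = 0.0236).

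**Figure D4:**
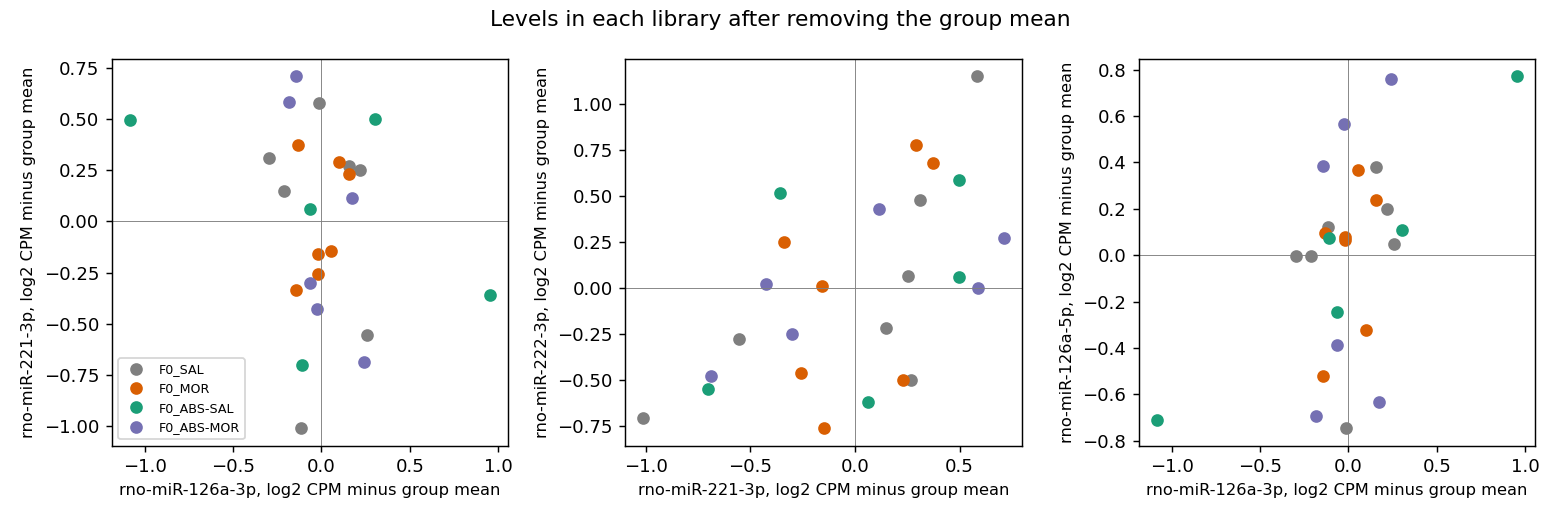
Log2 CPM minus the group mean in each of the 25 libraries for rno-miR-126a-3p against rno-miR-221-3p, rno-miR-221-3p against rno-miR-222-3p, and rno-miR-126a-3p against rno-miR-126a-5p, with points coloured by group. The first panel has r = -0.26, the second r = 0.55 and the third r = 0.54, which falls to 0.27 without the points farthest to the left and right.

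The miRNAs whose levels were most like those of the most read strand of each locus were then listed. Over the 25 libraries, with group means removed and as a description only, rno-miR-126a-3p was closest to rno-miR-143-5p (r = 0.69), rno-miR-322-5p (0.69), rno-miR-195-5p (0.66), rno-miR-450a-5p (0.60) and rno-miR-455-5p (0.58). Without libraries E and L, the first kept an r of 0.64, while the other 4 had values between 0.19 and 0.41. The miRNAs closest to rno-miR-221-3p were rno-miR-27b-3p (r = 0.83), rno-miR-27a-3p (0.82), rno-miR-200b-3p (0.78), rno-miR-152-3p (0.74) and rno-let-7i-5p (0.73). Without libraries K and O these r lay between 0.59 and 0.76.

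Of 18 other miRNAs with described roles in endothelium or vessel growth, all tested, 7 were called higher and 2 lower in F0_ABS-SAL than in F0_SAL (22.4% and 10.7% over all tested). The median log2 fold change was 0.48, against 0.00 over all 317. The smallest p belonged to rno-miR-27a-3p (1.11), rno-miR-27b-3p (0.71), rno-miR-23a-3p (1.04) and rno-miR-210-3p (1.03), the first 3 from the paralogous miR-23/27/24 clusters and the last known as the hypoxia-induced miRNA. In F0_ABS-MOR against F0_MOR, 3 were called higher and 3 lower (11% and 10.1% over all tested), with a median of 0.18. Those called higher were rno-miR-27a-3p (0.95), rno-miR-210-3p (0.67) and rno-miR-139-5p (0.96), and those called lower came from the miR-17-92 cluster, rno-miR-92a-3p (-1.23), rno-miR-17-5p (-0.60) and rno-miR-20a-5p (-0.63). From the same cluster and also on the list, rno-miR-18a-5p (-0.13) and rno-miR-19b-3p (-0.12) were not called. Of these miRNAs, rno-miR-139-5p, rno-miR-17-5p, rno-miR-20a-5p, rno-miR-18a-5p and rno-miR-19b-3p are named after their values were seen. The list thus held called members in both directions in each drug group. Between morphine and saline, 0 of the 18 were called at either time, where 0% of all miRNAs were.

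Some markers of other cells that a sperm preparation can hold also moved with collection time, though not those of every cell type. In bulk sperm RNA, a change in the number of such cells and a change in RNA per cell cannot be told apart. For muscle, a list that holds rno-miR-143-3p and rno-miR-145-5p of smooth muscle, 3 of 5 tested markers were called higher in F0_ABS-SAL (22.4% over all tested). In F0_ABS-MOR 1 of 5 was (11%), and rno-miR-145-5p was not (log2 fold change 0.66, edgeR adjusted p = 0.219). Not called in either were rno-miR-145-3p (0.10 in the saline and -0.01 in the morphine males) and rno-miR-1-3p (0.22 and -0.31). All 6 listed markers were in the matrix, and rno-miR-133b-3p was at 0 throughout F0_MOR and F0_ABS-SAL. Their summed level ran from 13731 to 16904 CPM in F0_SAL and 13145 to 17751 in F0_MOR, against 17654 to 81757 for F0_ABS-SAL and 15766 to 36423 for F0_ABS-MOR. Library R held the highest sum and library L, with the highest rno-miR-126a-3p, held 28906 CPM. Without library R, the log2 fold change of rno-miR-126a-3p between F0_ABS-SAL and F0_SAL was 1.17 (adjusted p = 0.00134). Library E, with the lowest rno-miR-126a-3p of its group, held a muscle sum of 17750 CPM, while library K, at 17654 CPM, had a rno-miR-126a-3p level of 1246 against 633 CPM. The part of muscle RNA in the miR-126 result was not tested.

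**Figure D5:**
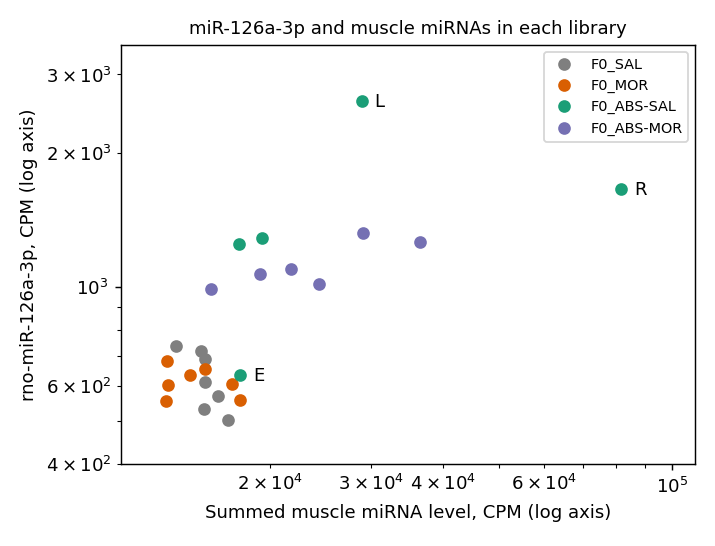
Level of rno-miR-126a-3p against the summed level of 6 muscle miRNAs in each of the 25 libraries (CPM, log axes), coloured by group, with libraries L, R and E of F0_ABS-SAL marked. All abstinent libraries but E lie above the nonabstinent libraries in rno-miR-126a-3p. The abstinent libraries with a muscle sum within the nonabstinent range are E, K and X.

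Among 7 epithelial markers, all tested, 4 were called higher in F0_ABS-SAL, against 22.4% of all tested, and 2 in F0_ABS-MOR, against 11%. The log2 fold changes in the saline males ran from 1.73 for rno-miR-205 to -0.31 for rno-miR-203a-3p, both of stratified epithelium, and that of rno-miR-203a-3p was -0.30 in the morphine males (not called in either). Their summed level ran from 7311 to 11638 CPM in F0_SAL and 8234 to 11809 in F0_MOR, against 9183 to 19413 for F0_ABS-SAL and 9356 to 17572 for F0_ABS-MOR, and no marker was at 0 throughout a group. Of the erythroid markers, 3 of 4 were in the matrix, none at 0 throughout a group. They were lower in F0_ABS-MOR than in F0_MOR (3 of 3 called, where 10.1% of all tested were), and 0 of 3 were called in the saline males. Their sum ran from 929 to 2741 CPM in F0_SAL and 948 to 2372 in F0_MOR, against 655 to 1256 for F0_ABS-SAL and 308 to 1292 for F0_ABS-MOR, and 0 of 3 were called higher in either drug group.

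Of 6 leukocyte markers, all tested and none at 0 throughout a group, 0 were called in the saline males and 1 was called lower in F0_ABS-MOR (10.1% over all tested), rno-miR-150-5p. Their sum ran from 746 to 1223 CPM in F0_SAL and 897 to 1368 in F0_MOR, against 776 to 1121 for F0_ABS-SAL and 778 to 1244 for F0_ABS-MOR. The sperm miRNAs of the miR-34 and miR-449 family went the other way, with 4 of 5 tested called lower in F0_ABS-SAL (10.7% over all tested) and 1 of 5 in F0_ABS-MOR (10.1%). Their sum ran from 396641 to 742741 CPM in F0_SAL and 322628 to 509968 in F0_MOR, against 270687 to 394328 for F0_ABS-SAL and 175454 to 433287 for F0_ABS-MOR, with rno-miR-449c-5p at 0 throughout every group but F0_ABS-SAL. These markers of sperm, the sampled cell, had the largest sum of the 5 cell type lists in every group. The part of these shifts in the members' results was not tested.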

How the data were processed

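The authors prepared libraries with the NEBNext small RNA kit, sequenced paired-end on an Illumina HiSeq and used the forward reads. With sRNAbench they trimmed adaptors, filtered on mean quality, aligned to Rnor_6.0 and annotated to miRBase. The deposited values are raw read counts per mature miRNA, 1 column per library, without normalization. Columns carry a letter, REG or TO, and SAL or MOR. REG was taken as the earlier and TO as the later collection because their column numbers equal the labelled numbers of samples, and the column names carry no replicate number. Libraries were not numbered from the order of their letters. The ncRNA matrix was not used here.

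Counts were tested in R 4.3.3 with edgeR 4.0.16 (quasi-likelihood test, TMM, low-count filter over the 4 groups, 1 model for all 25 libraries), leaving 317 of 562 miRNAs. The study's DESeq2 model has the same grouping. Adjusted p is Benjamini-Hochberg over all 317, and the standard error, taken as the log2 fold change over the square root of F, and the interval from it are approximate. Correlations used log2 CPM with a prior count of 2. Alternatives were DESeq2 1.42.0, limma-voom (limma 3.58.1) and other scalings, filters, covariates and thresholds, and each library left out in turn. p-values measure the spread between libraries, which the labels call biological replicates. The named miRNAs are the members, the 5 most alike to rno-miR-126a-3p and rno-miR-221-3p, and some of each list. Some list members were named after their values were seen. The members and lists were chosen with earlier results of these data known.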

Additional observations from a re-analysis of the deposited data

Results flagged for a closer look

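In each of 36 groups of 5 to 7 libraries, formed by the levels of the 5 tested members, the 3 read ratios and the library totals, the highest and the lowest library were checked against the others. Of these, 1 had a library far from the rest, and about 1.8 would be so by chance. The log2 CPM of rno-miR-126a-5p was 4.73 in F0_SAL library H, with the next library at 5.47. Library H held 30 reads of this strand.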

How the results depend on the processing

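The calls of both miR-126a strands and of rno-miR-221-5p between collection times held in every setting in which the strand was tested, and with each library left out in turn. A minimum of 10 counts in every library removed rno-miR-221-5p from the test. The calls of rno-miR-221-3p and rno-miR-222-3p in the saline males were lost with scaling to rno-miR-186-5p, with limma-voom and with an adjusted p under 0.05, each of which left 3 members called. With 1 library left out, between 3 and 5 were called. Total count alone moved the median log2 fold change of all miRNAs to 0.39 in the saline and 0.18 in the morphine males, and that of rno-miR-126a-3p to 1.63 and 1.07. With log2 library total as a covariate, rno-miR-222-3p was also called in the morphine males (0.61, adjusted p = 0.0778 from edgeR). No paired analysis was possible because the column names carry no replicate number and none was assigned from the order of their letters. At 6 to 28 reads per nonabstinent library, the depth limits rno-miR-221-5p and its ratio.

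The sign of some uncalled values changed, and the cause was not tested. Between F0_MOR and F0_SAL, rno-miR-126a-3p was 0.16 with total count, 0.024 with library total as a covariate and -0.14 to 0.023 without 1 library, and rno-miR-126a-5p was 0.14 with total count and 0.13 with the covariate. Between F0_ABS-MOR and F0_ABS-SAL, rno-miR-221-3p was 0.047 with total count, 0.092 scaled to rno-miR-186-5p, 0.11 with limma-voom and -0.16 to 0.15 without 1 library. The interaction of rno-miR-221-5p was -0.13 with limma-voom and -0.11 to 0.35 without 1 library.

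With 5 added to each count, the log2 ratio of the miR-221 strands differed by 0.65 in the saline and 0.90 in the morphine males, and the calls were lost. In the morphine males that of miR-126a was -0.0098 and that of miR-222-3p over miR-221-3p -0.0028. Without 1 library, the miR-221 ratio ran from 0.73 to 1.12 in the saline males, from 0.86 to 1.31 in the morphine males and from -0.13 to 0.30 between F0_MOR and F0_SAL. The miR-126a ratio ran from -0.069 to 0.21 in the morphine males and from -0.16 to 0.035 between F0_MOR and F0_SAL. The miR-222-3p ratio ran from -0.099 to 0.29 in the saline and -0.10 to 0.14 in the morphine males.

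Scaled to rno-miR-186-5p, r was 0.082 for rno-miR-126a-3p with rno-miR-221-3p and 0.15 with rno-miR-221-5p. Over the 4 alternative settings that kept all libraries, r of rno-miR-126a-3p with rno-miR-222-3p ran from 0.037 to 0.38 (lowest adjusted permutation p = 0.225). Without 1 library, r of rno-miR-126a-3p ran from 0.40 to 0.61 with rno-miR-126a-5p, -0.18 to 0.079 with rno-miR-221-5p and -0.098 to 0.14 with rno-miR-222-3p. That of rno-miR-222-3p ran from -0.47 to -0.18 with rno-miR-126a-5p (adjusted permutation p = 0.0674 without library L), 0.48 to 0.61 with rno-miR-221-3p and -0.010 to 0.28 with rno-miR-221-5p.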
